A study of Rattus norvegicus with 6 samples.

Results

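CC chemokine ligands are small secreted proteins that recruit leukocytes, and 10 of them were followed here: Ccl2, Ccl7, Ccl12, Ccl3, Ccl4, Ccl5, Ccl11, Ccl17, Ccl22 and Ccl20. They were chosen by gene name from a table of 30562 rat genes, and all 10 names were found once in it. The RNA came from intervertebral discs of the tail of male Sprague-Dawley rats, which were aged 12 weeks when the injury was made. The discs were punctured with a needle and then injected with 10 µL of either PBS or AF-PTK@LEV@SPP1. By the study's methods treatment began 24 h after surgery, discs were assessed after 8 weeks, and each group held 3 animals. AF-PTK@LEV@SPP1 is a liposome fused with detoxified bacterial outer membrane vesicles, with a peptide that binds the annulus fibrosus on a linker cut by reactive oxygen species, and it carried 1 mg/kg of an siRNA designed against mouse Spp1. The PBS group had the same puncture and no siRNA, and no uninjured disc was compared here. The sample labels differ from the methods, since they name an untreated control, 14 days of treatment and macrophages sorted from mouse tissue, and the methods' description is used here.

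CC ligands bind G protein-coupled receptors on leukocytes, and each receptor is usually shared by several ligands. Monocytes follow the ligands of CCR2, eosinophils those of CCR3, and dendritic and T cell subsets those of CCR4, CCR6 and CCR7. In injured discs such ligands are made by disc cells and by infiltrating macrophages, often downstream of NF-κB.

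The PBS libraries held 17942989, 16565291 and 17489851 counts in replicates 1, 2 and 3, and the AF-PTK@LEV@SPP1-labelled libraries held 17074981, 15560728 and 17855184. Levels are given as normalized CPM, read counts brought to equal library totals and scaled by TMM in edgeR, and 3 counts in a library correspond to 0.167 to 0.193 CPM before that scaling. Intervals and floors of this kind cover counting error only. Transcript lengths were not used here, so levels are compared between libraries, and a gene said to lead its list has the highest mean normalized CPM over the 6 libraries, whatever its length. PBS replicates 2 and 3 differed by 1.33 times the variance of counting noise, against 51.3 to 107 times for the 5 other pairs within a group. These 2 libraries lay close to sampling noise and were counted as 1 sample, which leaves 2 distinct PBS samples against 3.

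Spp1, the gene the siRNA targets, stood in PBS replicates 1, 2 and 3 at 8110, 4410 and 4410 normalized CPM, against 8050, 6890 and 8450 in AF-PTK@LEV@SPP1-labelled libraries. The libraries labelled as treated thus did not have less of the target, and PBS replicate 1 lay within their range. Its log2 fold change was 0.31 (standard error, SE, 0.37, edgeR adjusted p = 0.628), and every direction below is therefore relative to the labels. Col2a1, the main collagen of cartilage, had 13900 to 21100 normalized CPM in PBS and 20300 to 31900 in AF-PTK@LEV@SPP1-labelled libraries. Levels this high in every library go against the label of sorted macrophages.

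Most of the ligands were lower in AF-PTK@LEV@SPP1-labelled libraries, and the CCR2 ligands Ccl2 and Ccl7, the CCR1 ligand Ccl3 and the CCR6 ligand Ccl20 passed the test. Of the 10, 9 passed the filter on low counts, and edgeR's quasi-likelihood test over the 5 distinct samples called 4 of these lower and 0 higher, at an unadjusted p under 0.05 for 7 of the 9. Over all 15537 genes tested, 2.57% were called lower and 1.13% higher, and 13.0% and 12.4% had an unadjusted p under 0.05. Kept as 6 libraries, edgeR called 7 of 8 tested ligands lower, where it called 9.93% of all genes lower and 8.2% higher. Over the distinct samples 7 of the 9 tested ligands lay below PBS without overlap, as did 21.9% of all genes tested. Without a filter the 10 ligands had a median log2 fold change of -2.67, against 0.02 over all genes with a count. Ccl2, Ccl3, Ccl4, Ccl12, Ccl17 and Ccl22 were among the genes the study itself displayed from these libraries, so their direction is not independent evidence. In bulk tissue, fewer cells of a type and less RNA per cell cannot be told apart.

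**Figure D1:**
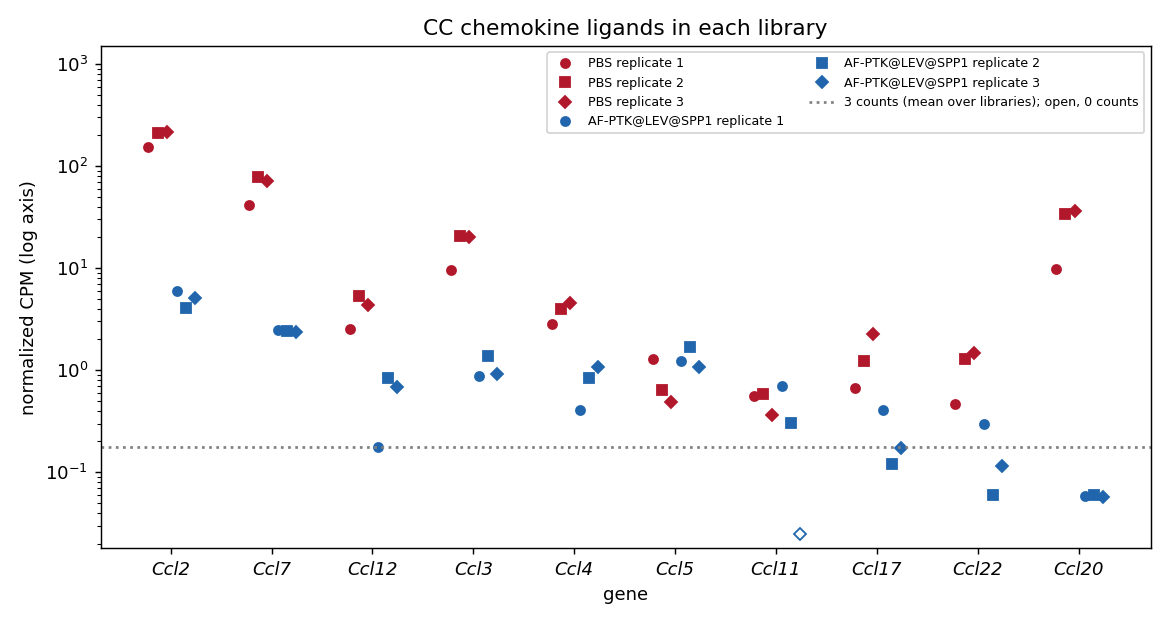
Normalized CPM of the 10 ligands in each library, on a log axis. Each point is a library, red for PBS and blue for AF-PTK@LEV@SPP1, and the open point marks 0 counts. Ccl2, Ccl7, Ccl3 and Ccl20 show the widest gaps between the groups, while the points of Ccl5 and Ccl11 overlap.

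Ccl2, the main attractant of classical monocytes, stood in PBS replicates 1, 2 and 3 at 154, 210 and 216 normalized CPM, against 5.93, 4.04 and 5.07 in AF-PTK@LEV@SPP1-labelled libraries. Every PBS library was high and every library of the other label was low, with no overlap. Its mean was 184 ± 41.7 (SD, n = 2 distinct samples) against 5.01 ± 0.949 (SD, n = 3), 36.7-fold lower, with a log2 fold change of -5.20 (SE 0.24, edgeR adjusted p = 0.00863). Ccl7, which binds CCR2 and other receptors on monocytes, stood at 41.3, 78.7 and 71.4 in PBS and at 2.47, 2.41 and 2.39 in the other group. PBS replicate 1 was the lowest of its group and still far above the AF-PTK@LEV@SPP1-labelled libraries, which were nearly equal. The log2 fold change of Ccl7 was -4.59 (SE 0.29, edgeR adjusted p = 0.0119). Ccl12, another ligand of CCR2 in rodents, was counted in 49, 82 and 72 reads in PBS and in 3, 14 and 12 reads in AF-PTK@LEV@SPP1-labelled libraries. The groups did not overlap, and AF-PTK@LEV@SPP1 replicate 1 was lowest, at the floor of 3 counts in a library. The difference in log2 level was -2.70 (SE 0.65), which missed the threshold (edgeR adjusted p = 0.0879).

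Ccl3, which draws macrophages and T cells through CCR1, had 9.49, 20.7 and 20.1 normalized CPM in PBS and 0.881, 1.39 and 0.911 in AF-PTK@LEV@SPP1-labelled libraries. PBS replicate 1 was again below the PBS pair, and the groups stayed apart. Its log2 fold change was -3.83 (SE 0.42, edgeR adjusted p = 0.0234). Ccl4, a close relative of Ccl3, had 2.82, 3.99 and 4.58 normalized CPM in PBS and 0.411, 0.844 and 1.08 in the other libraries. All PBS libraries were higher, but the log2 fold change of -2.19 (SE 0.47) did not pass (edgeR adjusted p = 0.0736). Ccl3 and Ccl4 share 887 bases of their annotated spans on opposite strands, and since the use of strand in counting is not given in the sources used here, reads of the overlap cannot be told apart. A gene with 0 counts in every library spans all 1803 bases of Ccl2 on the other strand. Ccl2, Ccl7 and Ccl12 are related in sequence, and how reads shared between genes were counted is likewise not given. Ccl5, made by T cells and macrophages, differed from these ligands, with 1.28, 0.643 and 0.488 normalized CPM in PBS and 1.23, 1.69 and 1.08 in AF-PTK@LEV@SPP1-labelled libraries. PBS replicate 1 lay among the latter, and the groups overlapped (log2 fold change 0.54, SE 0.50, edgeR adjusted p = 0.528).

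Ccl20, which guides CCR6-bearing T cells and dendritic cells and is induced in epithelial and stromal cells by IL-17 and IL-1, was counted in 190, 526 and 589 reads in PBS and in 1, 1 and 1 read in AF-PTK@LEV@SPP1-labelled libraries. The groups were far apart, and within the PBS group replicate 1 was the lowest. Its mean over the distinct samples was 380-fold lower. Reads summed over the 6 libraries, the PBS pair counted as 2, were 1305 against 3, which gave 433-fold after scaling, with an exact 95% counting interval of 148 to 2100. The fitted log2 fold change was -8.45 (SE 0.80, edgeR adjusted p = 0.0205), and it was -9.09 without PBS replicate 1 and -7.83 with limma-voom. Its size depends on PBS replicate 1 and on the small number of reads in the lower group.

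Ccl17 and Ccl22, the CCR4 ligands made mainly by dendritic cells and alternatively activated macrophages, were close to the limit of detection. Ccl17 was counted in 13, 19 and 37 reads in PBS and in 7, 2 and 3 reads in AF-PTK@LEV@SPP1-labelled libraries. Ccl22 was counted in 9, 20 and 24 reads against 5, 1 and 2. For both genes every PBS library was above every library of the other group, although PBS replicate 1 and AF-PTK@LEV@SPP1 replicate 1 came close. Ccl17 had a log2 fold change of -2.37 (SE 0.71, edgeR adjusted p = 0.126) and was not called. Ccl22 did not pass the filter, and without a filter its log2 fold change of -2.60 was not called either (edgeR adjusted p = 0.149). The table's annotation lists Ccl22 as a long noncoding RNA, while RefSeq lists it as protein coding. Ccl11, an eosinophil attractant that binds CCR3, had 11, 9 and 6 reads in PBS and 12, 5 and 0 in AF-PTK@LEV@SPP1-labelled libraries, and the groups overlapped (log2 fold change -0.62, SE 1.11, edgeR adjusted p = 0.756).

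For the 8 ligands without overlap, a two-sided exact permutation test of the mean level over the distinct samples gave p = 0.1, the smallest that 3 against 2 samples allow, and this design cannot reach 0.05. The same exact test gave p = 0.5 for Ccl5 and p = 0.6 for Ccl11. The calls rest on 3 libraries of the label AF-PTK@LEV@SPP1: without replicate 1, Ccl3 and Ccl20 missed the threshold (edgeR adjusted p = 0.0608 and 0.0574), as they did with limma-voom (adjusted p = 0.0578 and 0.112), and without replicate 2 or without replicate 3 edgeR called none of the ligands and 0 genes in all. At an unadjusted p under 0.05 it then had 1581 genes lower and 1528 higher without replicate 2, and 1403 and 1296 without replicate 3. For Ccl2 the adjusted p from edgeR was then 0.0645 and 0.127, with log2 fold changes of -5.07 and -5.21.

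The ligands lie in 4 places of the genome. Coordinates are those of the table, whose build is not given in the sources used here. Ccl2 (from 67005424 to 67007226), Ccl7 (from 67016446 to 67018303), Ccl11 (from 67028328 to 67032926) and Ccl12 (from 67070230 to 67071780) follow each other on the plus strand of chromosome 10. Within this row Ccl2 and Ccl7 were called lower, and Ccl11, next to Ccl7, was not. Ccl5 (from 68322829 to 68327377), Ccl3 (from 68451388 to 68452938) and Ccl4 (from 68452052 to 68468231) lie further along chromosome 10, Ccl17 (from 10202128 to 10203819) and Ccl22 (from 10257601 to 10264400) on chromosome 19, and Ccl20 (from 84388904 to 84391629) on chromosome 9. Within 100 kb of a ligand 31 other genes are annotated, of which 15 passed the filter. Their median log2 fold change was 0.04, and edgeR called 1 lower and 0 higher. That gene was Ciapin1, an iron-sulfur protein gene near Ccl17 and Ccl22, with a log2 fold change of -0.77 (edgeR adjusted p = 0.0431), and the call was lost with library sizes alone, without PBS replicate 1 or 2 and without any of the AF-PTK@LEV@SPP1-labelled libraries.

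**Figure D2:**
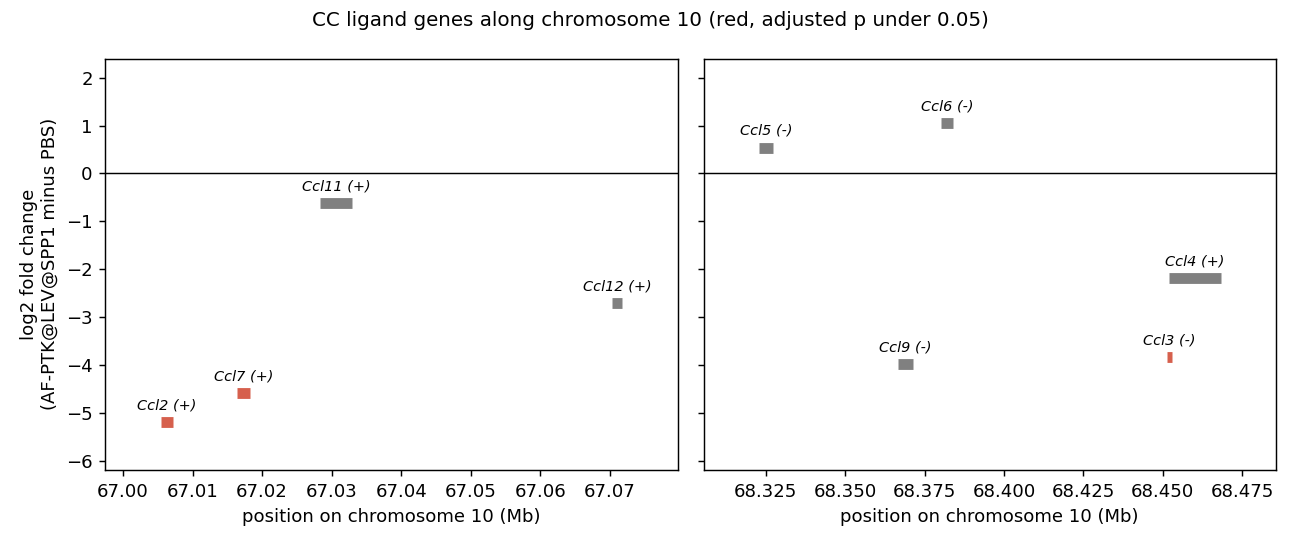
Log2 fold change (AF-PTK@LEV@SPP1-labelled minus PBS) of CC ligand genes along 2 stretches of chromosome 10, in megabases of the table's annotation. Each bar spans a gene, its strand is in parentheses, and red marks an adjusted p under 0.05 in edgeR. Ccl2 and Ccl7 lie lowest, while Ccl5 and Ccl6 lie above 0.

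Promoter windows of 5 of the 10 ligands, Ccl7, Ccl12, Ccl17, Ccl22 and Ccl20, were found in RefSeq's table for build GRCr8, each from 250 bases before to 50 bases after the start of the gene. They were searched on both strands for the consensus NF-κB site, for the AP-1 motif TGANTCA and for TTC and GAA with 4 bases between them, a spacing known for STAT6. Among 33465 promoters of this length 7.52% held the first, 7.33% the second and 7.28% the third. Ccl7 held 1 NF-κB match and 1 AP-1 match, Ccl20 held 1 NF-κB match, and Ccl17 held 1 match to the STAT6 spacing, while Ccl12 and Ccl22 held none of these. The promoters of the 2 called ligands with an entry are shown, Ccl7 at chr10:67513845-67514144 (plus strand) and Ccl20 at chr9:91836909-91837208 (plus strand), with matches in capitals. A match describes the letters and is not a measured binding site.
Ccl7: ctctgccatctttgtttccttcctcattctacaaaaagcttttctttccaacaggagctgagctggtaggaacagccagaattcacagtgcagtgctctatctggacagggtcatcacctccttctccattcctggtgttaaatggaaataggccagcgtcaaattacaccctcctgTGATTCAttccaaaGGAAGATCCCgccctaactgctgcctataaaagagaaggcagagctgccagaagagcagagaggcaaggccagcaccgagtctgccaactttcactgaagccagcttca
Ccl20: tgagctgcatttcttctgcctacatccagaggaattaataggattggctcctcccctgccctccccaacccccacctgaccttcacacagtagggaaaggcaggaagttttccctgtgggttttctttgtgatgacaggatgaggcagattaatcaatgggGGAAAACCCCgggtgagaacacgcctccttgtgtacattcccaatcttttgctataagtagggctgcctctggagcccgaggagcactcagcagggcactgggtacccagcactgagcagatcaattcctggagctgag

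Of 11 other CC ligands listed, 10 were found and 5 passed the filter, with 0 called lower and 0 higher by edgeR over the distinct samples and a median log2 fold change of 1.05. DESeq2 on the same samples called 2 lower, where it called 1440 of all 15537 genes tested lower, and limma-voom called 0. At an unadjusted p under 0.05 edgeR had 2 lower and 2 higher, against 13.0% and 12.4% of all genes tested. Ccl6, a rodent ligand of CCR1 that leads the list, had 67.6, 44.0 and 47.6 normalized CPM in PBS and 58.2, 144 and 151 in AF-PTK@LEV@SPP1-labelled libraries. AF-PTK@LEV@SPP1 replicate 1 lay among the PBS libraries (log2 fold change 1.05, edgeR adjusted p = 0.231). Ccl9, its neighbour and a related ligand, chosen after its values were seen, went the other way, with 71.6, 16.8 and 17.0 normalized CPM in PBS and 4.23, 2.17 and 1.94 in the other group. PBS replicate 1 was the highest of all libraries, unlike in Ccl7 and Ccl20, and the log2 fold change of -3.99 just missed the threshold (edgeR adjusted p = 0.0515).

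Among the receptors and decoy receptors of CC ligands, 14 of 15 listed genes were found, 12 passed the filter, and edgeR called 1 lower and 0 higher. Ccr7, which takes dendritic cells and T cells to lymph nodes, had 3.49, 2.51 and 3.29 normalized CPM in PBS and 0.470, 0.603 and 0.683 in AF-PTK@LEV@SPP1-labelled libraries. It was low in all of the latter (log2 fold change -2.44, SE 0.33, edgeR adjusted p = 0.0322), and the call was lost without PBS replicate 1 and without each AF-PTK@LEV@SPP1-labelled library in turn. Receptors of Ccl2, Ccl7, Ccl17, Ccl20 and Ccl22 were also read, chosen after their values were seen. Ccr2, the receptor of Ccl2 and Ccl7, had 49.4, 28.7 and 28.3 normalized CPM in PBS and 10.2, 49.0 and 54.9 in AF-PTK@LEV@SPP1-labelled libraries. It was low in AF-PTK@LEV@SPP1 replicate 1 alone and high in the others, so it did not follow its ligands (log2 fold change -0.04, edgeR adjusted p = 0.976). Ccr6, the receptor of Ccl20, had a log2 fold change of -1.06 (edgeR adjusted p = 0.237). Ccr4, the receptor of Ccl17 and Ccl22, had 4, 3 and 8 reads in PBS and 0 reads in every AF-PTK@LEV@SPP1-labelled library, too few to pass the filter. Of the decoy receptors, which bind ligands without signaling, Ackr4 leads, with 16.1, 48.9 and 50.3 normalized CPM in PBS and 22.4, 19.8 and 18.0 in the other group. PBS replicate 1 lay below the AF-PTK@LEV@SPP1-labelled libraries and the PBS pair above them.

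Upstream of the ligands, edgeR called 6 of 14 tested genes of the NF-κB route (17 listed) lower and 0 higher. Of all genes tested it called 2.57% lower and 1.13% higher. The route had a median log2 fold change of -1.09, against 0.046 over all genes tested. Il1a, a cytokine that activates NF-κB, had 188, 182 and 202 reads in PBS and 0, 3 and 2 in AF-PTK@LEV@SPP1-labelled libraries. The groups were far apart, and the reads summed over the 6 libraries gave a 114-fold lower level after scaling, against 110-fold over the distinct samples (exact 95% counting interval of the summed reads 48.5 to 352; edgeR adjusted p = 0.0213). Tlr2, a receptor for bacterial lipoproteins, had 90.7, 80.0 and 80.0 normalized CPM in PBS and 8.17, 16.7 and 19.0 in the other group, with no overlap (log2 fold change -2.55, edgeR adjusted p = 0.0349). Zc3h12a, a ribonuclease that degrades cytokine mRNA, fell by 1.98 on the log2 scale (edgeR adjusted p = 0.0119). Tnfaip3, a brake on NF-κB signaling, fell by 1.51 (edgeR adjusted p = 0.0196), and the NF-κB subunit genes Relb and Nfkb2 fell by 1.49 and 1.00 (edgeR adjusted p = 0.0255 and 0.0337). Without PBS replicate 1 the calls of Tlr2, Tnfaip3, Relb and Nfkb2 were lost, and without AF-PTK@LEV@SPP1 replicate 1 those of Relb and Nfkb2. Of the IL-4 and GM-CSF route, which induces Ccl17 and Ccl22, 1 of 6 tested genes (10 listed) was called lower by edgeR and 0 higher, with a median log2 fold change of -1.12. This was the receptor gene Il4r, with 71.4, 63.8 and 64.4 normalized CPM in PBS and 29.8, 32.9 and 31.0 in the other group (log2 fold change -1.13, edgeR adjusted p = 0.0196; 0.0515 without AF-PTK@LEV@SPP1 replicate 1), while Il13 was at 0 reads in every library and Il4 at no more than 1.

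Lists of leukocyte markers differed among themselves. Of 14 monocyte and macrophage markers, edgeR called Cd68 and Cd14 lower and 0 higher, with a median log2 fold change of -0.84, and limma-voom called the same 2. DESeq2 called 6 lower, adding Csf1r, Mrc1, Mertk and Cx3cr1, and edgeR over 6 libraries called 4. Over all genes tested, DESeq2 called 1440 of 15537 lower, and edgeR over 6 libraries called 9.93% lower. At an unadjusted p under 0.05 edgeR had 6 lower, 13 had a log2 fold change below 0, and 8 lay below PBS without overlap over the distinct samples. Of all genes tested 13.0% were lower at that unadjusted p, and 21.9% lay below PBS without overlap. The summed level of the list was 3270, 2210 and 2200 normalized CPM in PBS and 759, 2040 and 2050 in AF-PTK@LEV@SPP1-labelled libraries, led by Lyz2 with 1830, 1270 and 1250 in PBS and 271, 1240 and 1400 in the other group, and no marker was at 0. Cd68, a lysosomal protein of macrophages, had 150, 112 and 116 normalized CPM in PBS and 28.5, 42.1 and 30.9 in the other group (log2 fold change -1.97, edgeR adjusted p = 0.0231). Cd14, the lipopolysaccharide co-receptor, had 151, 134 and 134 against 38.1, 36.1 and 41.4 (log2 fold change -1.89, edgeR adjusted p = 0.0119). The call of Cd68 was lost without PBS replicate 1 and without AF-PTK@LEV@SPP1 replicate 1, while Cd14 was called in both of these fits. Cd68 and Cd14 were low in every library in which Ccl2 and Ccl20 were low, and the part of these markers in the ligands' difference was not tested.

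Of 8 T cell markers 3 were called lower, Cd8a, Cd8b and Cd2, with log2 fold changes of -2.19, -2.73 and -2.02 (edgeR adjusted p = 0.0363, 0.0427 and 0.0260). All 3 calls were lost without PBS replicate 1 and without each AF-PTK@LEV@SPP1-labelled library in turn, and that of Cd8b with limma-voom, while Cd8b did not pass the stricter filter. DESeq2 called 5 lower, where it called 1440 of all 15537 genes tested lower. Of the 8 markers 6 lay below PBS without overlap, as did 21.9% of all genes tested. Cd5 and Lck overlapped between the groups, with log2 fold changes of 0.55 and 0.07. The summed level of the list was 26.8, 26.6 and 26.5 normalized CPM in PBS and 9.46, 12.9 and 13.7 in AF-PTK@LEV@SPP1-labelled libraries. Neutrophil markers summed to 1120, 184 and 174 in PBS and to 289, 2860 and 3950 in the other group, led by S100a9, and eosinophil markers to 137, 16.9 and 16.8 against 63.7, 1550 and 1070, led by Prg2. Both were highest in AF-PTK@LEV@SPP1 replicates 2 and 3 and lowest in PBS replicates 2 and 3, with 0 of 8 and 0 of 4 genes called by edgeR, DESeq2 or limma-voom and 0 and 1 at an unadjusted p under 0.05 in edgeR. None of the 7 tested dendritic markers, led by Itgax, or 5 tested mast cell markers, led by Kit, was called by edgeR, DESeq2 or limma-voom, and 0 had an unadjusted p under 0.05 in edgeR, with median log2 fold changes of 0.19 and 0.44.

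Among tissue markers, edgeR called 1 of 8 cartilage genes higher, Chad (log2 fold change 2.93, adjusted p = 0.0454), and 1 of 8 fibroblast genes lower, the collagen-binding Lum (log2 fold change -3.40, adjusted p = 0.0303). The call of Chad was lost without PBS replicate 1, and those of Chad and Lum without each AF-PTK@LEV@SPP1-labelled library in turn. DESeq2 also called Matn3, Col3a1 and Pdgfra lower and Col1a2 higher. Lum had 2470, 5920 and 5950 normalized CPM in PBS and 324, 444 and 436 in AF-PTK@LEV@SPP1-labelled libraries. Of the 5 notochordal, 6 endothelial, 4 muscle and 4 adipocyte genes tested, edgeR over the distinct samples and limma-voom called 0. DESeq2 called 3, 2, 0 and 3 of them, where it called 1440 of all 15537 genes tested lower and 1132 higher. Over 6 libraries edgeR called Krt18 and Lep higher and Pecam1, Cdh5 and Vwf lower. At an unadjusted p under 0.05 edgeR over the distinct samples had 3, 3, 0 and 3. Of all genes tested 13.0% were lower and 12.4% higher at that unadjusted p. The notochordal list, led by Krt8, summed to 458, 101 and 96.7 normalized CPM in PBS and 2520, 858 and 967 in the other group, with Noto at 0 in every library, and the adipocyte list, led by Adipoq, to 144, 17.0 and 15.8 against 407, 791 and 278. Muscle genes, led by Acta1, summed to 763, 986 and 1010 against 743, 7910 and 1930, and endothelial genes, led by Pecam1, to 498, 601 and 584 against 375, 437 and 434. Between the labels the notochordal and adipocyte sums were higher and the endothelial sums lower than in PBS without overlap, and the muscle sums overlapped. Over the distinct samples 3 of the 6 tested endothelial genes lay below PBS without overlap, as did 21.9% of all genes tested. The part of these lists in the ligands' difference was not tested.

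Genes were ranked by Pearson correlation of log2 CPM with the mean z score of the 9 tested ligands across the 6 libraries. The ranking covered 12967 candidate genes, with a minimum log2 CPM of 1, and not all genes tested. Among these candidates the genes most like the ligands were Gpnmb, Furin, Steap1, Atic and Wars1, with r from 0.997 to 0.999. The libraries form separate groups and include the near-identical pair, so r mainly describes the gap between groups. Gpnmb, a glycoprotein of lipid-laden macrophages and osteoclasts, had 592, 687 and 685 normalized CPM in PBS and 167, 183 and 145 in AF-PTK@LEV@SPP1-labelled libraries (log2 fold change -1.96, edgeR adjusted p = 0.0196). Steap1, a metalloreductase, had 17.0, 23.5 and 24.6 against 3.70, 3.62 and 2.68, with PBS replicate 1 the lowest of its group as in Ccl2, Ccl7 and Ccl20 (log2 fold change -2.63, edgeR adjusted p = 0.0196). Wars1, a tRNA ligase, was also called (log2 fold change -0.61, edgeR adjusted p = 0.0423), and the protease gene Furin and the purine synthesis gene Atic were not, at log2 fold changes of -0.65 and -0.48 (edgeR adjusted p = 0.0509 and 0.0616). The calls of Gpnmb and Wars1 were lost without AF-PTK@LEV@SPP1 replicate 1, and that of Wars1 also without PBS replicate 1 and with library sizes alone.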

How the data were processed

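The authors deposited counts, whole numbers of reads per Ensembl rat gene in each of 6 libraries, without normalization. The submitters' processing notes name FastQC, Trimmomatic, HISAT2, featureCounts and DESeq2 and the mouse build mm10, although the gene identifiers are those of rat. Versions, strand settings and rules for shared reads are not given in the sources used here. The members and lists were chosen with earlier results of these data known. Counts of PBS replicates 2 and 3 were summed, and 15537 of 30562 genes passed filterByExpr (minimum count 10). They were tested with edgeR 4.0.16 in R 4.3.3 (TMM, quasi-likelihood F test, Benjamini-Hochberg adjustment over all genes tested, called at an adjusted p under 0.05). Standard errors were derived from the F statistic. The log2 CPM for correlations used a prior count of 2. Named genes are the 10 ligands, the called genes of each list or the gene with the highest mean normalized CPM, called neighbours within 100 kb, and the 5 genes most correlated with the ligands; others were chosen after their values were seen. Alternatives were DESeq2 1.42.0, limma-voom (limma 3.58.1), other scalings and filters, a robust fit, 6 separate libraries, a replicate block and each library left out. The fits were tested on simulated data, with changes placed only in well-counted genes and the same spread for every gene. That check does not cover ligands with few reads. Listed genes not found by name were not analysed here. RefSeq's GRCr8 tables gave promoters and gene types, and the build of the table's coordinates was not used with them. 1 tested gene is counted with its list and is not reported by itself here.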

Additional observations from a re-analysis of the deposited data

How the results depend on the processing

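Over the 5 distinct samples edgeR called 400 genes lower and 175 higher, with 4 CC ligands, 0 other CC ligands and 1 CC receptor lower. Kept as 6 libraries it called 1494 lower and 1233 higher, with 7 CC ligands lower, 2 other CC ligands lower, 2 receptors lower and 2 higher, and 2 IL-4 route genes lower in place of 1. A fit with a block on the replicate number also kept the 6 libraries, so PBS replicates 2 and 3 were separate samples in it. It gave 434 genes lower and 307 higher, with 6 CC ligands and 2 other CC ligands lower. Tbxt, Krt8 and Krt18 were called higher in it, and Cd8b, Chad and Ciapin1 were not called. Same-numbered libraries had correlations of -0.323, -0.274 and -0.079 between their deviations from the group means. The near-identical PBS replicates 2 and 3 have nearly the same deviations, so these correlations cannot decide whether the numbers mark a pairing. DESeq2 called 1440 lower and 1132 higher, with 6 CC ligands, 2 other CC ligands, 2 receptors and 3 IL-4 route genes lower and 2 receptors higher. By limma-voom 2 CC ligands, Ccl2 and Ccl7, were called lower. RLE size factors and the stricter filter each gave 1 other CC ligand lower, and no filter gave 1 other CC ligand and 2 receptors lower. When each library was left out in turn, counts ranged from 0 to 396 genes lower, 0 to 170 higher, 0 to 4 CC ligands, 0 to 1 receptors lower, 0 to 1 receptors higher (Ccr10, without PBS replicate 2), 0 to 6 NF-κB route genes and 0 to 1 IL-4 route genes. The lowest counts came without AF-PTK@LEV@SPP1 replicate 2 or 3. Without AF-PTK@LEV@SPP1 replicate 1 there were 83 lower and 30 higher, and without PBS replicate 1 there were 215 and 65, with 2 NF-κB route genes lower. Where PBS replicate 1 was left out, the lone PBS sample is assumed to vary like the other group. These fits have fewer samples, and other causes of the changes were not tested. No log2 fold change of a tested ligand or of Spp1 changed sign in any alternative that tested it. That of Ccl2 ranged from -5.43 to -5.07, of Ccl7 from -4.96 to -4.50, of Ccl3 from -4.28 to -3.72 and of Ccl20 from -9.09 to -7.83, while adjusted p reached 0.127, 0.130, 0.142 and 0.136. For the tested ligands that were not called, log2 fold changes also moved between the alternatives that tested them. That of Ccl12 ranged from -3.09 to -2.30, of Ccl4 from -2.50 to -1.92 and of Ccl17 from -3.06 to -1.97. The range was 0.34 to 1.22 for Ccl5 and -1.50 to -0.03 for Ccl11. Ccl22 passed the filter only without PBS replicate 1 or with no filter. Counts at or near 3 in Ccl12, Ccl17, Ccl22 and Ccl20 limit how well the size of their differences could be measured.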
